A study of Mus musculus with 13 samples.

Results

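Paired receptors are surface proteins of myeloid cells that come in closely related inhibitory and activating forms. Described here are 9 genes of this kind, Cd300a, Cd300c2, Cd300ld, Cd300lf, Lilrb4a, Lilra5, Pirb, Sirpa and Cd200r1, which were picked by gene symbol out of 48587 gene symbols in a table of RNA sequencing counts. RNA came from mouse macrophages of the sciatic nerve (4 libraries) and the optic nerve (4 libraries) and from mouse brain microglia (5 libraries), and every mouse was of the C57BL/6J strain. The sciatic nerve belongs to the peripheral nervous system, and the optic nerve and the brain to the central, which is the contrast the series was built on. No treatment, injury, transgene, age or sex is given for these libraries, and how the cells were isolated is not given in the sources used here. Nothing in the labels says that the replicates were separate animals, so p-values measure the spread between these samples, which may be technical.

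Most inhibitory forms carry tyrosine-based inhibitory motifs in their cytoplasmic tails. When these are phosphorylated by Src-family kinases, they recruit the phosphatases encoded by Ptpn6, Ptpn11 and Inpp5d and dampen activation. The activating forms have short tails and signal through small adaptor proteins, encoded by Tyrobp and Fcer1g, which carry activating motifs and recruit the kinase Syk. Sirpa on macrophages and microglia reads Cd47 on other cells and restrains their engulfment, Cd200r1 reads Cd200, which neurons display, and Pirb reads MHC class I molecules and also the myelin proteins Nogo (Rtn4), Mag and Omg. The Cd300 receptors bind lipids, among them phospholipids that dying cells expose.

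Library totals ran from 15.7 to 18.2 M counts in sciatic nerve, from 16.5 to 20.4 M in optic nerve and from 10.9 to 23.5 M in brain. Levels are given in CPM, counts per 1e+06 of the library size after TMM scaling. The labelled cells carried macrophage RNA in all tissues: a list of 7 macrophage markers led by Csf1r summed to 8209 to 10061 CPM in sciatic nerve, 11209 to 13149 in optic nerve and 12002 to 23862 in brain libraries. Microglia markers summed to 2869 to 3211 CPM in sciatic nerve, against 25102 to 28126 in the libraries labelled optic nerve macrophages and 28594 to 54360 in brain. Brain replicates 1 and 2 stood apart from brain replicates 3 to 5, and mitochondrially encoded genes took 3.79% of the counts in brain replicate 1, against 0.410% to 1.23% in the other libraries. In bulk RNA, fewer cells of a type and less RNA per cell cannot be told apart.

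All 9 genes passed the filter on low counts and entered the quasi-likelihood test of edgeR, whose p-values were adjusted by the Benjamini-Hochberg method over 13246 genes. Cd300ld passed the filter through the nerves, with 2 brain libraries at its level, so the filter had a part in its direction against brain. It is among the receptors counted below as higher in each nerve than in brain. Genes with an adjusted p below 0.05 count as called. In sciatic nerve against brain, 5 of the 9 receptors were called higher and 3 lower, where 24.1% of all tested genes were called higher and 24.3% lower (48.4% in either direction). Libraries of these tissues did not overlap for 4 receptors that were higher and 3 that were lower, against 22.1% and 19.2% of all genes (41.3% together). In optic nerve against brain, 4 were called higher and 4 lower, against 19.6% and 17.4% of all genes (36.9% together), and without overlap there were 4 higher and 3 lower, against 17.4% and 14.4% (31.8% together). In sciatic against optic nerve, 5 were called higher and 3 lower, against 10.9% of all genes in each direction (21.8% together), and the same numbers were free of overlap, against 15.5% higher and 14.4% lower (29.9% together). The median log2 fold change of the 9 was 0.75, 0.32 and 2.03 in these comparisons, beside -0.09, -0.08 and 0.00 over all tested genes. The comparisons share libraries, so the 3 counts do not stand on independent data. Inhibitory and activating genes were both found among those highest in sciatic nerve (Lilrb4a, Pirb and Cd200r1, with Cd300ld and Lilra5), and both among those lowest there (Sirpa, with Cd300c2).

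**Figure D1:**
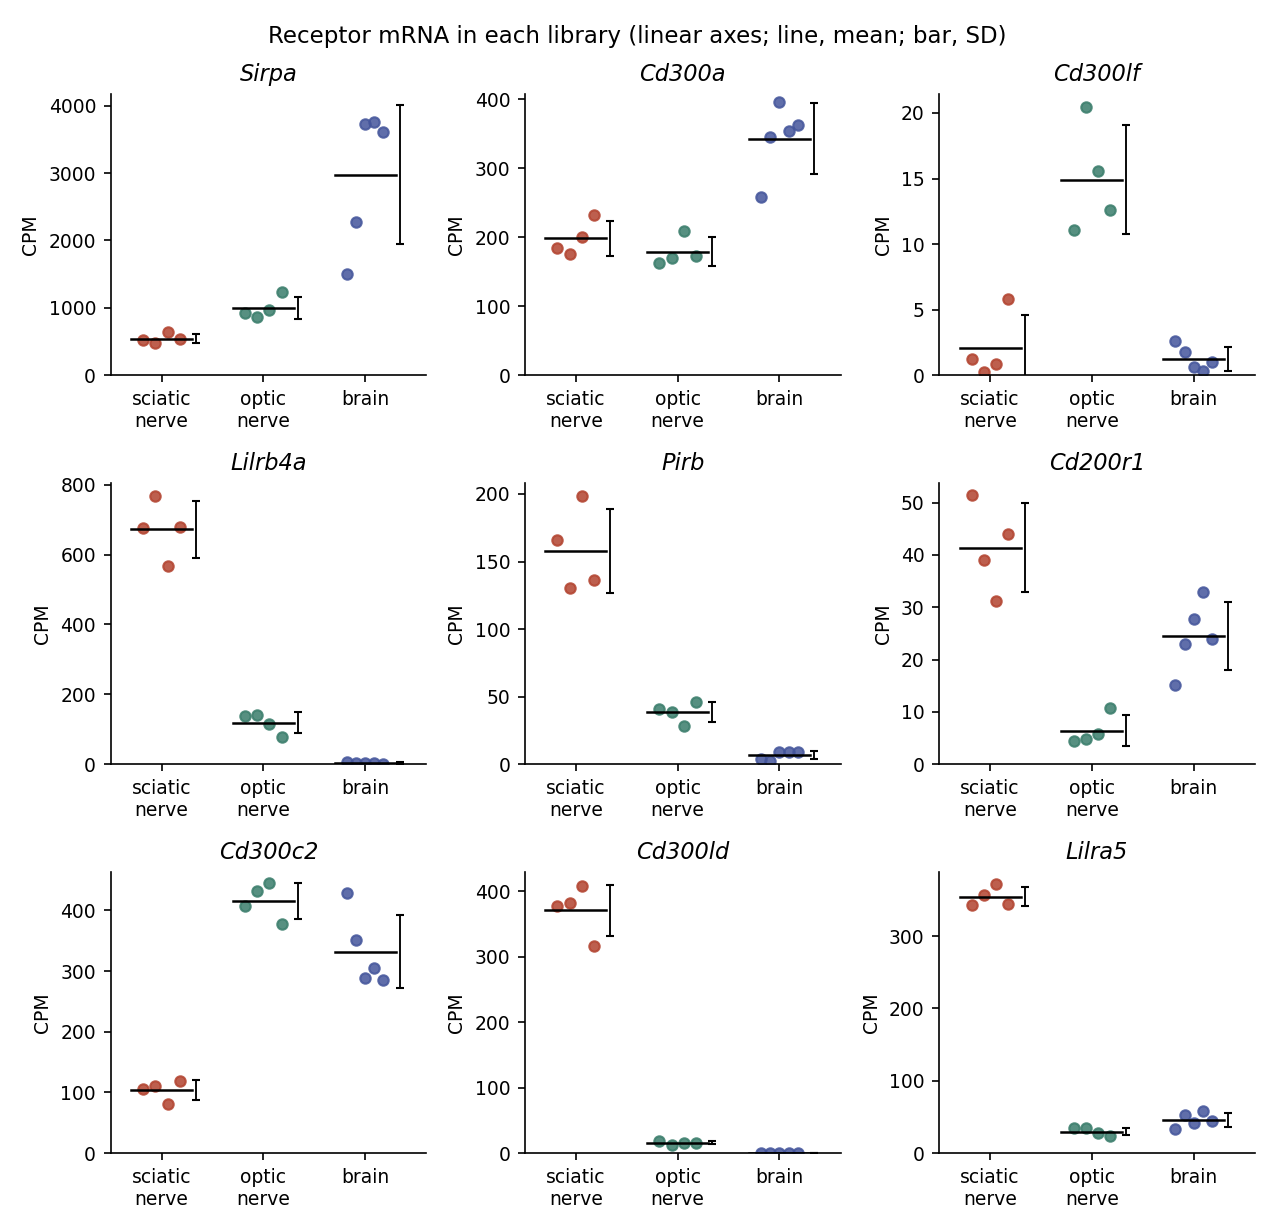
CPM of each receptor in every library (points, on linear axes that start at 0), with the mean (line) and SD (bar, ending at 0 where it would go below) for 4 sciatic nerve, 4 optic nerve and 5 brain libraries. Sirpa and Cd300a are highest in brain, Cd300lf stands highest in optic nerve, and Lilrb4a, Pirb, Cd300ld and Lilra5 are highest in sciatic nerve.

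Promoter sequences are shown for the 3 receptors whose RefSeq promoter (GRCm38.p6, 250 bases before to 50 after the start site) holds the letters GAGGAAGT, the core of sites bound by Spi1, the factor that macrophages need to form. Cd300ld and Pirb were both highest in sciatic nerve and lowest in brain, and Cd300lf was highest in optic nerve. The table held a promoter for 6 of the 9 receptors, and those of Lilra5, Cd300a and Cd300c2 lack these letters. Both strands were searched for exactly these letters, and 3.20% of the 32851 promoters in the table hold the motif. Other forms of such sites were not searched for, so a promoter that lacks these letters may still hold one. Sequences run 5′ to 3′ on the strand of the gene, with the motif in capitals.
Cd300ld: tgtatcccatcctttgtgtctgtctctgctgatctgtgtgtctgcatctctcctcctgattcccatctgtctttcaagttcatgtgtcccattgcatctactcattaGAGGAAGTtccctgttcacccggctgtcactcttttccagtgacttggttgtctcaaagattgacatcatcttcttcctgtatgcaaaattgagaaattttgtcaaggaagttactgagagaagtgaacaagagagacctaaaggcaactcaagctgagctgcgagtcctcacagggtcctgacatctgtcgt
Pirb: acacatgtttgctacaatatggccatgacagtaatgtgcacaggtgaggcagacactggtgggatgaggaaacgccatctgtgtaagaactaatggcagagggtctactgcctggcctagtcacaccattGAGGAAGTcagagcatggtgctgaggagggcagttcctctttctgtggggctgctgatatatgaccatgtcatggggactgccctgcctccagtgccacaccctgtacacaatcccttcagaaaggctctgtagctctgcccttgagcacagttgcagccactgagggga
Cd300lf: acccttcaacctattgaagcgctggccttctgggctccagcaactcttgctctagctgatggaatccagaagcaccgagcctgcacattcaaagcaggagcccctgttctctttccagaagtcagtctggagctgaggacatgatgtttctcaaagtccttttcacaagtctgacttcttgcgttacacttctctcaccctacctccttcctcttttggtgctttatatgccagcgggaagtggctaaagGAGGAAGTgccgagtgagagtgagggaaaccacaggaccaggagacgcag
They lie on the minus strand at chr11:114989837-114990136 for Cd300ld, chr7:3720333-3720632 for Pirb and chr11:115133943-115134242 for Cd300lf. The motif begins 143 bases before the start site in Cd300ld and 120 bases before it in Pirb, and at the start site itself in Cd300lf. A match of letters is a description and not a measured binding site.

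Sirpa encodes the inhibitory receptor for Cd47 and lies on chromosome 2 (129592835 to 129632228, plus strand, GRCm38). Its level was 527, 483, 637 and 531 CPM in the 4 sciatic nerve libraries, 926, 869, 961 and 1228 in the 4 optic nerve libraries, and 1505, 2268, 3729, 3760 and 3615 in the 5 brain libraries. The tissues did not overlap, and brain replicates 1 and 2 lay well below the other brain libraries, which averaged 3701 ± 76.4 CPM (SD, n = 3). Sirpa was 5.46-fold lower in sciatic nerve than in brain (log2 -2.45, SE 0.25, edgeR adjusted p = 1.52e-06) and 2.99-fold lower in optic nerve than in brain (log2 -1.58, SE 0.24, edgeR adjusted p = 0.000173). Between the nerves it was 1.83-fold lower in sciatic nerve (log2 -0.87, SE 0.25, edgeR adjusted p = 0.0203). That last call was lost without optic nerve replicate 4 (edgeR adjusted p = 0.0642), without sciatic nerve replicate 1 or 4 (0.0520 each) and without sciatic nerve replicate 2 (0.0615).

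Cd300a, an inhibitory receptor that binds phosphatidylserine and phosphatidylethanolamine, lies on chromosome 11 (114890041 to 114904654, plus strand). It had 185, 176, 200.3 and 233 CPM in sciatic nerve, 163, 170.1, 209 and 174 in optic nerve, and 258, 346, 397, 354 and 362 in brain. Every brain library was above every nerve library, while the nerves overlapped. Cd300a was 1.73-fold lower in sciatic nerve than in brain (log2 -0.79, SE 0.15, edgeR adjusted p = 0.000507) and 1.92-fold lower in optic nerve than in brain (log2 -0.94, SE 0.15, edgeR adjusted p = 0.000221). The difference between sciatic and optic nerve was 0.15 on the log2 scale (SE 0.15, edgeR adjusted p = 0.565).

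Cd300lf encodes a further inhibitory receptor of the family, which in mice also serves as the entry receptor of norovirus, and lies at the far end of the gene cluster (chromosome 11, 115116214 to 115133992, minus strand). It was scarce. Sciatic nerve had 1.24, 0.277, 0.864 and 5.80 CPM, optic nerve 11.1, 20.4, 15.6 and 12.6 CPM, and brain 2.57, 1.78, 0.653, 0.303 and 1.00 CPM. Optic nerve libraries were all above the others, and sciatic nerve replicate 4 stood above the other sciatic nerve libraries. Cd300lf was 11.9-fold higher in optic nerve than in brain (log2 3.58, SE 0.76, edgeR adjusted p = 0.00224) and 7.27-fold lower in sciatic than in optic nerve (log2 -2.86, SE 0.81, edgeR adjusted p = 0.0189). Without sciatic nerve replicate 4 the log2 fold change between the nerves was -4.22. The call was lost without sciatic nerve replicate 1 (edgeR adjusted p = 0.0562) or 3 (0.0578). Sciatic nerve did not differ detectably from brain (log2 0.71, SE 0.73, edgeR adjusted p = 0.443), and the difference was -0.66 without sciatic nerve replicate 4.

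Lilrb4a, also known as gp49B, encodes an inhibitory receptor of the leukocyte immunoglobulin-like family and lies on chromosome 10 (51490956 to 51496611, plus strand). Its level was 675, 768, 567 and 678 CPM in sciatic nerve, 139, 141, 115.0 and 77.3 in optic nerve, and 6.72, 3.13, 2.57, 2.23 and 1.88 in brain. The 3 tissues were far apart, with optic nerve between the others. Lilrb4a was 209-fold higher in sciatic nerve than in brain (log2 7.71, SE 0.37, edgeR adjusted p = 3.05e-10), and 36.7-fold higher in optic nerve than in brain (log2 5.20, SE 0.33, edgeR adjusted p = 1.91e-08). It was 5.68-fold higher in sciatic than in optic nerve (log2 2.51, SE 0.32, edgeR adjusted p = 3.18e-05). In the GENCODE M21 annotation its exons share 35.3% of their bases with Gm49339 on the same strand, and 43.5% of the 50-base stretches of its longest transcript occur in other genes, chiefly Gm49339 and the neighbouring paralogue Lilr4b. How reads that fit both were counted is not given in the sources used here, so the split between Lilrb4a and its copies is uncertain.

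Pirb encodes the paired immunoglobulin-like receptor B, the inhibitory receptor for MHC class I and myelin proteins, and lies on chromosome 7 (3711409 to 3720391, minus strand). It had 166, 130.3, 199 and 136 CPM in sciatic nerve, 40.8, 38.8, 28.5 and 46.3 in optic nerve, and 4.08, 2.53, 8.81, 9.01 and 9.31 in brain. No tissues overlapped, and brain replicates 1 and 2 had the least. Pirb was 23.3-fold higher in sciatic nerve than in brain (log2 4.54, SE 0.35, edgeR adjusted p = 6.12e-08) and 5.69-fold higher in optic nerve than in brain (log2 2.51, SE 0.33, edgeR adjusted p = 3.46e-05). It was 4.09-fold higher in sciatic than in optic nerve (log2 2.03, SE 0.34, edgeR adjusted p = 0.000476). Of its 50-base stretches, 37.3% occur in other genes, and of all its stretches 21.7% are shared with Gm14548 and 20.7% with the activating partner Pira2. Those genes were counted far lower than Pirb, Gm14548 at 6.22 CPM in sciatic nerve, 0.262 in optic nerve and 0 in brain. How reads that fit both were counted is not given in the sources used here, so the split between Pirb and these genes is uncertain.

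Cd200r1, the receptor for Cd200, signals through docking proteins of the Dok family and lies on chromosome 16 (44765736 to 44794978, plus strand). Its level was 51.5, 39.0, 31.2 and 44.0 CPM in sciatic nerve, 4.38, 4.79, 5.75 and 10.8 in optic nerve, and 15.2, 23.0, 27.7, 32.9 and 23.9 in brain. Optic nerve was below both other tissues in every library, and sciatic nerve overlapped with brain. Cd200r1 was 3.83-fold lower in optic nerve than in brain (log2 -1.94, SE 0.31, edgeR adjusted p = 0.000209) and 6.45-fold higher in sciatic than in optic nerve (log2 2.69, SE 0.32, edgeR adjusted p = 2.00e-05). It was 1.68-fold higher in sciatic nerve than in brain (log2 0.75, SE 0.29, edgeR adjusted p = 0.0411). That call was lost in 10 alternative analyses, among them those without sciatic nerve replicate 1, 2 or 4 and without brain replicate 1, 2, 3 or 5, with edgeR adjusted p between 0.0508 and 0.139.

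Cd300c2 encodes an activating receptor that signals through the adaptor encoded by Tyrobp and lies on chromosome 11 (114996721 to 115001880, minus strand). It had 105, 110.0, 81.6 and 120 CPM in sciatic nerve, 407, 432, 446 and 378 in optic nerve, and 429, 352, 289, 306 and 285 in brain. Sciatic nerve lay below every other library, and optic nerve overlapped with brain through brain replicate 1. Cd300c2 was 3.19-fold lower in sciatic nerve than in brain (log2 -1.67, SE 0.16, edgeR adjusted p = 6.65e-07) and 4.00-fold lower in sciatic than in optic nerve (SE 0.17 on the log2 scale, edgeR adjusted p = 4.69e-07). Optic nerve exceeded brain by 0.32 on the log2 scale (SE 0.15, edgeR adjusted p = 0.110), a difference that was called without brain replicate 1 (log2 0.43, edgeR adjusted p = 0.0175).

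Cd300ld, a receptor with a short tail that signals through the adaptor encoded by Fcer1g, lies next to Cd300c2 (chromosome 11, 114982274 to 114989922, minus strand). Sciatic nerve had 378, 382, 407 and 316 CPM and optic nerve 18.4, 12.6, 15.7 and 16.0 CPM. The 5 brain libraries held 12, 0, 1, 11 and 13 counts, or 0.382 ± 0.374 CPM (SD, n = 5). The tissues were separated by more than their spread, and the brain level rests on few counts. Since Cd300ld passed the filter through the nerves, the filter had a part in the direction of its differences from brain. Cd300ld was 45.2-fold higher in optic nerve than in brain (log2 5.50, SE 0.49, edgeR adjusted p = 6.50e-07), and 23.6-fold higher in sciatic than in optic nerve (log2 4.56, SE 0.45, edgeR adjusted p = 2.39e-06). Sciatic nerve exceeded brain by 10.06 on the log2 scale (SE 0.55, edgeR adjusted p = 1.09e-09), the widest difference of any of the 9 receptors in any comparison.

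Lilra5, an activating-type receptor of the leukocyte immunoglobulin-like family, lies on chromosome 7 (4237754 to 4243463, plus strand). Its level was 344, 357, 372 and 345 CPM in sciatic nerve, 34.1, 34.3, 28.0 and 23.2 in optic nerve, and 33.8, 53.2, 41.2, 57.8 and 44.5 in brain. Sciatic nerve stood above both other tissues, which overlapped. Lilra5 was 7.67-fold higher in sciatic nerve than in brain (log2 2.94, SE 0.18, edgeR adjusted p = 3.25e-09) and 11.8-fold higher in sciatic than in optic nerve (log2 3.57, SE 0.20, edgeR adjusted p = 6.90e-09). It was 1.54-fold lower in optic nerve than in brain (log2 -0.63, SE 0.17, edgeR adjusted p = 0.0107).

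**Figure D2:**
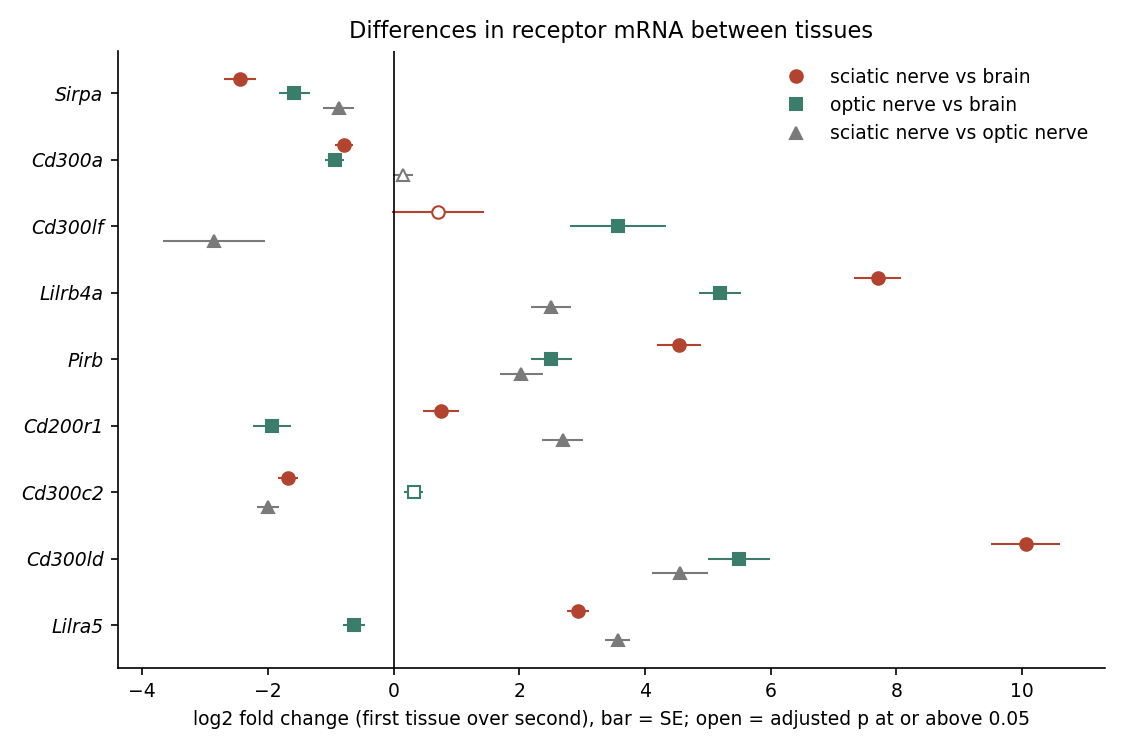
Log2 fold change (first tissue over second) of each receptor, with SE bars, in sciatic nerve vs brain (circles), optic nerve vs brain (squares) and sciatic nerve vs optic nerve (triangles); open symbols have an edgeR adjusted p at or above 0.05. Cd300ld reaches 10.06 in sciatic nerve vs brain and Sirpa lies at -2.45, and Cd200r1 and Lilra5 have opposite signs in the 2 comparisons with brain.

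Results against brain were also computed without brain replicates 1 and 2, which stood apart. Log2 fold changes in sciatic nerve were then -2.77 for Sirpa, -0.90 for Cd300a, 8.24 for Lilrb4a, 4.12 for Pirb, -1.50 for Cd300c2, 10.04 for Cd300ld and 2.89 for Lilra5, all still called. In optic nerve they were -1.88 for Sirpa, -1.04 for Cd300a, 4.52 for Cd300lf, 5.74 for Lilrb4a, 2.10 for Pirb, -2.12 for Cd200r1, 5.49 for Cd300ld and -0.67 for Lilra5, also called. Cd300c2 was then called higher in optic nerve than in brain (log2 0.51, edgeR adjusted p = 0.00568). Cd200r1 was no longer called in sciatic nerve against brain (log2 0.55, edgeR adjusted p = 0.139), and Cd300lf stayed uncalled there (log2 1.64, edgeR adjusted p = 0.109).

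Levels of different genes were compared per length, as CPM per kilobase of merged exons. On this scale Lilra5 had the highest mean in sciatic nerve (168 ± 6.25 CPM per kb, SD, n = 4), followed by Cd300ld (140 ± 14.6), Lilrb4a (129 ± 15.7) and Sirpa (111 ± 13.4). The libraries of Cd300ld overlapped with those of Lilrb4a, and those of Lilrb4a with those of Sirpa. The place of Lilrb4a depends on the length used, as its merged exons hold 5227 bases and its longest transcript 3769. Both lengths are 2109 for Lilra5 and 2645 for Cd300ld. Reads of Lilrb4a may also be split with its copies, so its rank is uncertain. In optic nerve Cd300c2 led (326 ± 23.4 CPM per kb) before Sirpa (203 ± 32.5), and the next, Cd300a, had 37.8 ± 4.35. In brain Sirpa led (606 ± 210 CPM per kb, n = 5), then Cd300c2 (261 ± 47.5) and Cd300a (72.4 ± 10.9), while Lilrb4a and Cd300ld had 0.633 ± 0.376 and 0.145 ± 0.142. Sirpa made up 15.4% ± 1.76 of the length-scaled sum of the 9 receptors in sciatic nerve, 32.5% ± 4.84 in optic nerve and 60.7% ± 11.9 in brain, where the libraries ranged from 42.5% to 69.0%. The sum itself was 719 ± 8.71 CPM per kb in sciatic nerve, 623 ± 16.9 in optic nerve and 971 ± 178 in brain.

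**Figure D3:**
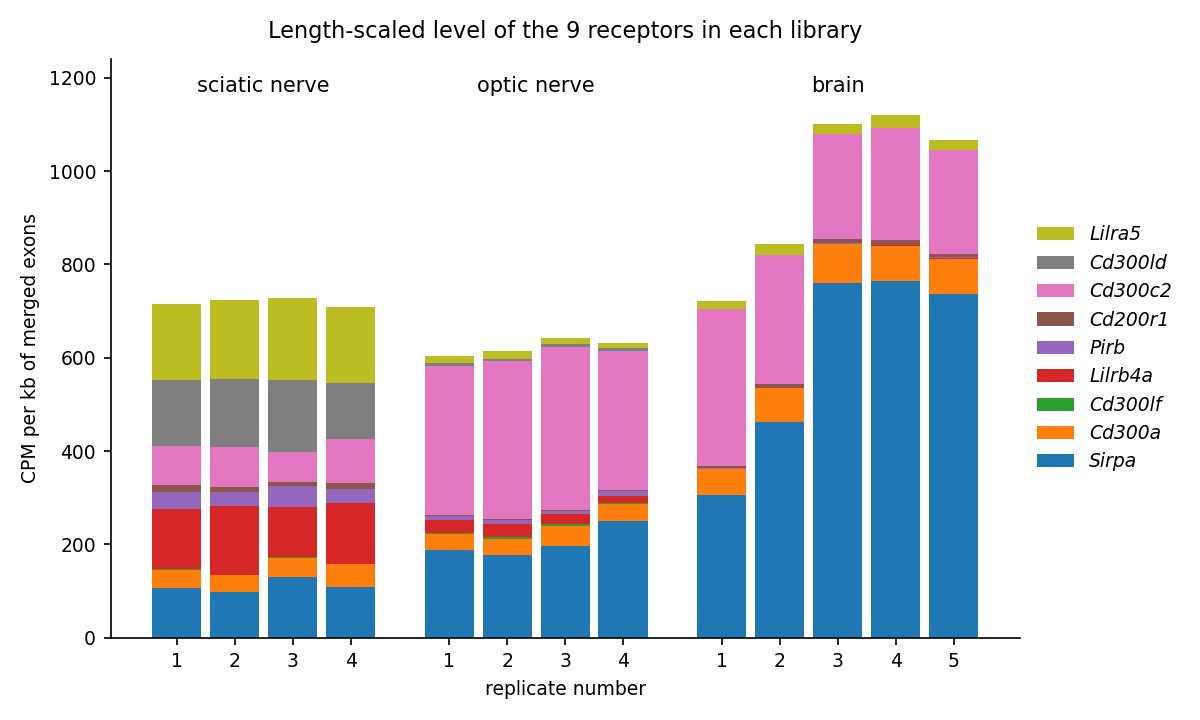
Level of the 9 receptors in every library, stacked, as CPM per kilobase of merged exons (axis from 0), by replicate number within sciatic nerve, optic nerve and brain. Lilra5, Cd300ld and Lilrb4a fill much of the sciatic nerve bars, Cd300c2 the optic nerve bars and Sirpa the brain bars, and brain replicates 1 and 2 hold less Sirpa than brain replicates 3 to 5.

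Genes closest to each receptor in log2 CPM over the 13 libraries were named as a description (Pearson's r, with no test, since the libraries fall into 3 tissues that all such pairs share). Lilrb4a was closest to Mt1, a metallothionein (r = 0.996), and Fxyd5 (r = 0.994), and Pirb to the growth factor gene Igf1 (r = 0.993) and the transcription factor gene Ets2 (r = 0.991). Cd300ld was closest to Lgals1, which encodes a galectin (r = 0.990), and Cbr2, a marker of border macrophages (r = 0.989), and Lilra5 to C1qtnf1 (r = 0.986) and Gstt1 (r = 0.984). Sirpa was closest to the lysosomal phospholipase gene Pla2g15 (r = 0.992) and Gpr155 (r = 0.990), Cd300c2 to Gngt2 (r = 0.995) and Mzt2 (r = 0.994), and Cd300a to Hnmt, which encodes a histamine-degrading enzyme (r = 0.970), and Chst7 (r = 0.968). Cd200r1 followed Trappc5 (r = 0.958) and Pde2a (r = 0.953), and Cd300lf followed Gm17018 (r = 0.936) and Atp6v1d (r = 0.933), less closely than the other receptors did their nearest genes.

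The Cd300 genes lie in a row on chromosome 11, with Cd300lg apart from the rest. Of 9 other Cd300 genes listed, 3 had enough counts to be tested (Cd300lb, Cd300lg and Cd300ld3). Cd300lg and Cd300ld3 passed the filter on low counts only through sciatic nerve, where they were high, so the direction of their differences was set by the filter and is no result. Cd300lb, an activating relative, had 114 ± 6.29 CPM in sciatic nerve, 15.7 ± 3.71 in optic nerve and 2.06 ± 1.11 in brain. Cd300lg had 23.3 ± 7.01 CPM in sciatic nerve and 0.926 ± 0.999 in optic nerve, with 1 count in all brain libraries. Between neighbours of the cluster the pattern turned: Cd300ld was highest in sciatic nerve, and Cd300c2, the next gene along, was lowest there.

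Among other PIR, LILR and PILR genes, 6 were tested of 18 listed. Pira2 and Lilra6 passed the filter only through sciatic nerve, where they were high, so nothing is read from their direction. Lilr4b, the paralogue of Lilrb4a, had 196 ± 26.5 CPM in sciatic nerve, 23.6 ± 7.56 in optic nerve and 2.26 ± 3.25 in brain, the order of Lilrb4a. The activating Pilrb2, which passed the filter only through the nerves, had 28.9 ± 4.49, 2.84 ± 1.72 and 0.0585 ± 0.131 CPM in these tissues. Lilra6 had 8.01 ± 4.05 CPM in sciatic nerve and 0.293 ± 0.331 in optic nerve, with 1 count in brain. Pilra, the inhibitory counterpart of the Pilrb genes, was not called between the nerves, at 56.3 ± 15.0 CPM in sciatic and 71.7 ± 11.6 in optic nerve (log2 -0.35, SE 0.25, edgeR adjusted p = 0.367), and 21.8 ± 5.82 in brain.

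Of 8 other SIRP and CD200 receptor genes listed, 4 were tested, and the 3 Sirpb1 genes among them passed the filter only through sciatic nerve, so the direction of their differences was set by it. Sirpb1a, Sirpb1b and Sirpb1c, activating relatives of Sirpa, had 4.85 ± 1.02, 4.05 ± 1.77 and 3.66 ± 0.854 CPM in sciatic nerve, and no count in the 5 brain libraries. With 3 counts over the brain group as the floor, the bound on the Sirpb1a fold over brain is 182 for sciatic nerve, in the direction that the filter set. In optic nerve Sirpb1a overlapped with brain, with a median of 0.108 CPM and a highest library of 2.72 CPM, so no bound is given there. They are closely related copies, and how the counting split their reads is not given in the sources used here. Sirpa itself ran the other way, highest in brain. Cd200r4, a neighbour and activating relative of Cd200r1, had 6.57 ± 1.53 CPM in sciatic nerve, 7.42 ± 2.56 in optic nerve and 1.13 ± 0.931 in brain. Cd200r4 was called higher in each nerve than in brain (edgeR adjusted p = 0.0107 and 0.0104) and was not called between the nerves (edgeR adjusted p = 0.909). Of the 4 genes, Sirpb1c was the single one called between the nerves, in the direction that the filter set, and it lost that call in 8 alternative analyses (edgeR adjusted p 0.0547 to 0.0931).

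**Figure D4:**
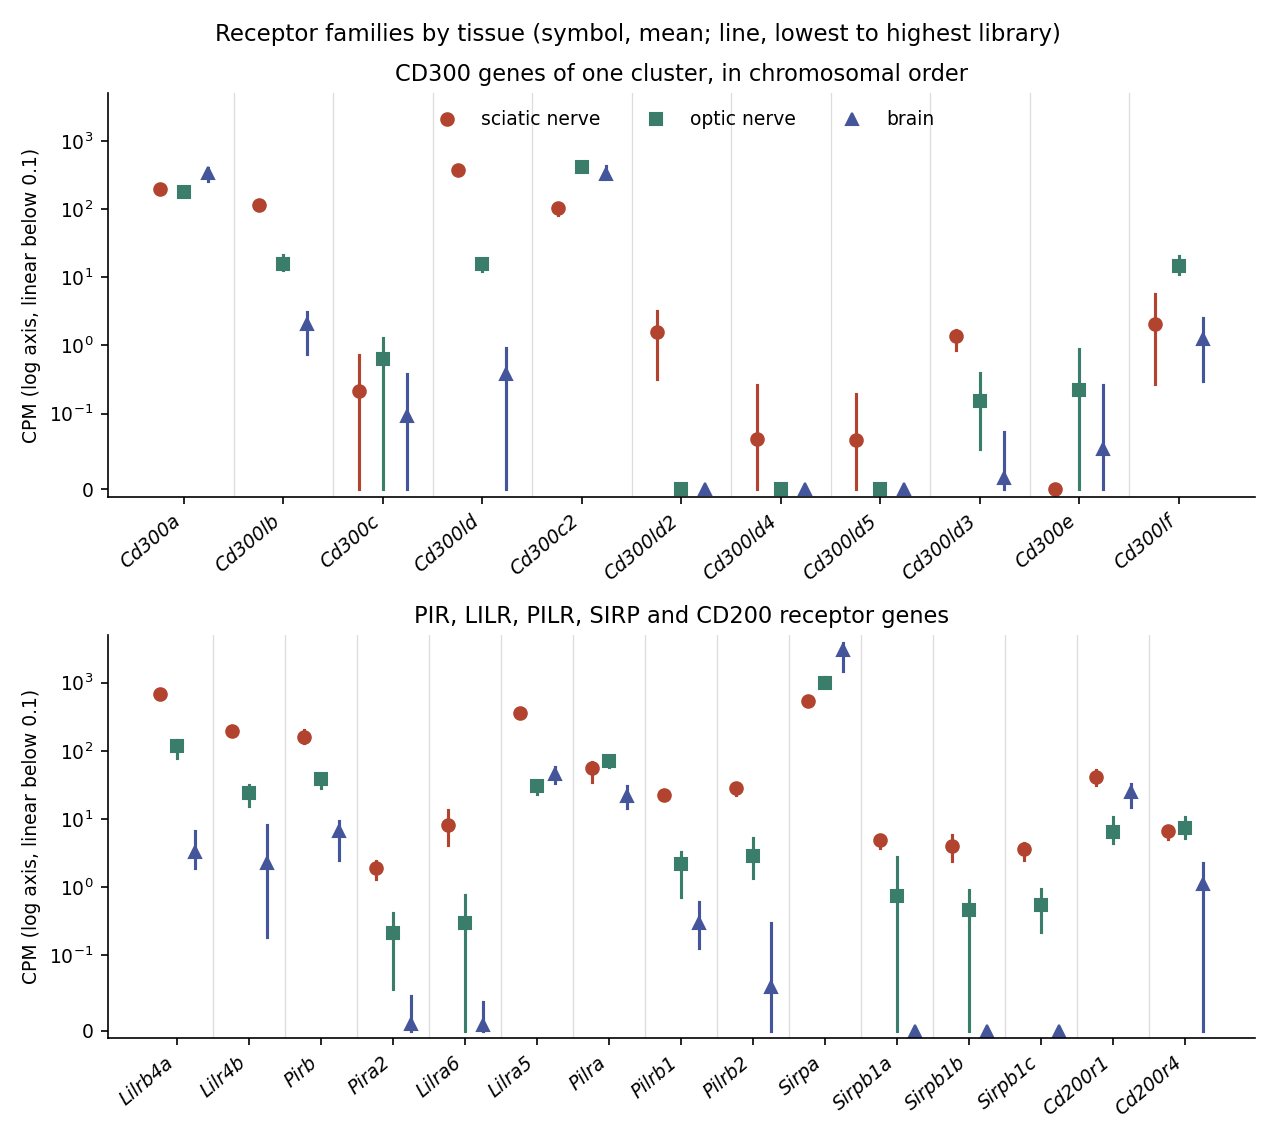
Mean CPM (symbols) and the lowest to highest library (lines) of Cd300 genes in the order they take along the chromosome (top) and of PIR, LILR, PILR, SIRP and CD200 receptor genes (bottom), in sciatic nerve (circles), optic nerve (squares) and brain (triangles), on a log axis that is linear below 0.1. Cd300ld and Cd300c2 stand side by side with 371 and 104 CPM in sciatic nerve, and Sirpa has more RNA in brain while the Sirpb1 genes have none.

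Of 21 other inhibitory receptors of myeloid cells listed, 16 were tested, and they were called in both directions. In sciatic nerve against brain 8 were called higher and 7 lower (median log2 0.32), against 24.1% and 24.3% of all tested genes. In optic nerve against brain 7 were higher and 4 lower (0.39), against 19.6% and 17.4%. In sciatic against optic nerve 5 were higher and 8 lower (-0.87), against 10.9% in each direction. Klrb1b passed the filter only through optic nerve, so the filter set its direction. Vsig4, Slamf7 and Clec12a passed it through the nerves, with 0, 0 and 1 brain libraries at its level, so it had a part in their direction against brain. Lag3 and Pecam1, both among the genes called lower in sciatic nerve, passed it through optic nerve and brain. With 0 sciatic nerve libraries of either gene at its level, the filter had a part in that direction. Clec12a, an inhibitory lectin that binds uric acid crystals, had 866 ± 122 CPM in sciatic nerve, 26.9 ± 6.25 in optic nerve and 0.109 ± 0.243 in brain (log2 12.80, SE 0.65, sciatic nerve vs brain, edgeR adjusted p = 5.24e-10). Slamf7, of the SLAM family, had 274 ± 53.2 CPM in sciatic nerve and 6.33 ± 2.53 in optic nerve, with 1 count in brain. Vsig4, a complement receptor that also restrains T cells, had 32.7 ± 6.83 CPM in sciatic nerve and 15.5 ± 12.4 in optic nerve and none in brain, so the bound on its fold over brain is 1233 for sciatic nerve (at least 1233-fold higher) and 585 for optic nerve (at least 585-fold higher).

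Others were low in sciatic nerve. Lag3, which binds MHC class II, had 0.343 ± 0.176 CPM in sciatic nerve, 36.7 ± 4.06 in optic nerve and 27.9 ± 11.8 in brain (log2 -6.72, SE 0.44, sciatic vs optic nerve, edgeR adjusted p = 3.26e-08). It passed the filter only through optic nerve and brain, so the filter had a part in this direction. Lair1, a collagen receptor, had 272 ± 31.9 CPM in sciatic nerve, against 865 ± 58.2 in optic nerve and 867 ± 89.4 in brain, and optic nerve differed from brain by -0.00 on the log2 scale (SE 0.13, edgeR adjusted p = 0.988). Cd72, an inhibitory receptor of B cells also found on macrophages, was close between the nerves, at 80.8 ± 22.3 CPM in sciatic and 90.3 ± 16.6 in optic nerve (edgeR adjusted p = 0.733), and had 7.79 ± 2.38 in brain. Klrb1b, a lectin-like receptor that passed the filter only through optic nerve, had 4.92 ± 2.26 CPM in optic nerve, against 0.114 ± 0.229 in sciatic nerve and 0.118 ± 0.165 in brain.

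Ligands can also be read in the macrophages themselves, and 7 of 12 listed were tested. In sciatic nerve against brain 4 were called higher and 1 lower (median log2 0.87), against 24.1% and 24.3% of all tested genes. In optic nerve against brain the numbers were 5 and 1 (1.47), against 19.6% and 17.4%. In sciatic against optic nerve they were 1 and 2 (0.16), against 10.9% in each direction. Fn1 passed the filter through the nerves, with 1 brain library at its level. H2-D1, an MHC class I chain read by Pirb, had 4398 ± 925 CPM in sciatic nerve, 3536 ± 242 in optic nerve and 570 ± 121 in brain. It was higher in both nerves than in brain (log2 2.95 and 2.63, SE 0.19 each, edgeR adjusted p = 6.55e-09 and 4.77e-08), as Pirb was. Cd47, the ligand of Sirpa, had 385 ± 31.2 CPM in sciatic nerve, 156 ± 35.1 in optic nerve and 292 ± 46.2 in brain. It was lower in optic nerve than in brain (log2 -0.91, SE 0.17, edgeR adjusted p = 0.000745) and higher in sciatic than in optic nerve (log2 1.31, SE 0.18, edgeR adjusted p = 5.63e-05), and sciatic nerve against brain missed the threshold (log2 0.40, SE 0.16, edgeR adjusted p = 0.0544), which it passed in 4 alternative analyses, among them DESeq2 and the one without optic nerve replicate 1 (adjusted p 0.0306 to 0.0428).

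Myelin and matrix ligands were less abundant. Mag, the myelin-associated glycoprotein, had 8.95 ± 1.66 CPM in sciatic nerve, 36.5 ± 3.82 in optic nerve and 16.7 ± 3.68 in brain (log2 -2.03, SE 0.23, sciatic vs optic nerve, edgeR adjusted p = 1.27e-05). A list of 7 oligodendrocyte markers that holds Mag itself and is led by Mbp summed to 54.2 to 84.4 CPM in sciatic nerve, 160 to 218 in optic nerve and 50.6 to 67.7 in brain. Like Mag it was highest in optic nerve, but unlike Mag it was not lower in sciatic nerve than in brain, and the part of these cells in the Mag result was not tested. Rtn4 was called in no comparison, with 228 ± 46.7 CPM in sciatic nerve, 122 ± 31.3 in optic nerve and 125 ± 81.3 in brain. Fn1, fibronectin, had 8.53 ± 3.23 CPM in sciatic nerve, 27.6 ± 17.2 in optic nerve and 0.299 ± 0.668 in brain. Cd200 averaged 0.555 CPM in sciatic nerve, 0 in optic nerve and 0.541 in brain and did not pass the filter.

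Of the 3 adaptors that activating receptors depend on, Fcer1g and Tyrobp were abundant in all tissues. Fcer1g had 1765 ± 264 CPM in sciatic nerve, 1748 ± 224 in optic nerve and 1224 ± 275 in brain, and was called higher in both nerves than in brain (log2 0.53 and 0.51, SE 0.17 each, edgeR adjusted p = 0.0194 and 0.0289). These calls were lost in 3 and 6 alternative analyses (edgeR adjusted p 0.0503 to 0.0803 and 0.0658 to 0.0987), all of them the replicate block or the loss of 1 library. Tyrobp was called in no comparison, at 1259 ± 132 CPM in sciatic nerve, 1879 ± 266 in optic nerve and 1277 ± 490 in brain, and neither was Hcst. Without brain replicate 1, or without brain replicates 1 and 2, Tyrobp was called higher in optic nerve than in brain. With all libraries edgeR called 1 of the 3 in each comparison with brain (median log2 0.40 and 0.51) and 0 between the nerves (0.01), where 1 had an unadjusted p under 0.05 and DESeq2 also called 0. Of all tested genes, 48.4% were called in sciatic nerve against brain, 36.9% in optic nerve against brain and 21.8% between the nerves. Cd300ld, which signals through the Fcer1g adaptor, had log2 fold changes of 10.06 and 5.50 in the same comparisons with brain.

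Phosphatases and docking proteins, the downstream side of the inhibitory receptors, were tested for all 12 genes listed. In sciatic nerve against brain 3 were called higher and 4 lower (median log2 -0.04), against 24.1% and 24.3% of all tested genes. In optic nerve against brain the numbers were 3 and 3 (0.13), against 19.6% and 17.4%. Between the nerves they were 2 and 2 (-0.32), against 10.9% in each direction. Dok2, a docking protein through which Cd200r1 signals, stood out, with 385 ± 62.6 CPM in sciatic nerve, 14.2 ± 5.20 in optic nerve and 0.350 ± 0.359 in brain, where 36 counts were found in all. Dok2 passed the filter through the nerves, with 2 brain libraries at its level, so the filter had a part in its direction against brain. The difference between sciatic nerve and brain was 10.18 on the log2 scale (SE 0.63, edgeR adjusted p = 4.42e-09), and 4.76 between the nerves (SE 0.52, edgeR adjusted p = 6.76e-06). Cd200r1 in brain was 24.5 ± 6.54 CPM, more than in optic nerve, while Dok2 was lowest in brain.

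Inpp5d, which encodes the lipid phosphatase SHIP, was lower in sciatic nerve than in brain (166 ± 43.4 CPM against 715 ± 137 CPM, log2 -2.11, SE 0.21, edgeR adjusted p = 9.59e-07), and had 368 ± 47.3 CPM in optic nerve. Dok1 was lower in both nerves than in brain, at 12.9 ± 3.68 CPM in sciatic nerve, 15.9 ± 2.26 in optic nerve and 43.7 ± 7.32 in brain. Ptpn6, the phosphatase that inhibitory motifs recruit in myeloid cells, had 241 ± 40.5 CPM in sciatic nerve, 391 ± 22.9 in optic nerve and 366 ± 88.9 in brain, and was called lower in sciatic nerve than in brain (log2 -0.60, SE 0.19, edgeR adjusted p = 0.0157) and than in optic nerve (log2 -0.70, SE 0.20, edgeR adjusted p = 0.0184). Skap2, an adaptor in the Sirpa pathway, had 340 ± 39.0 CPM in sciatic nerve, 293 ± 22.1 in optic nerve and 189 ± 33.5 in brain, higher in both nerves than in brain. Fyb was called in no comparison.

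Of the 7 kinases listed, which phosphorylate the motifs or act next to them, sciatic nerve had 4 called below brain and 0 above it (median log2 -0.93, edgeR), where Fyn had an unadjusted p under 0.05 and was called higher by DESeq2. Optic nerve had 3 above brain and 1 below (0.59), and sciatic nerve had 5 below optic nerve and 0 above (-1.13), and the number above was also 0 with DESeq2 and at an unadjusted p under 0.05. Of all tested genes, 24.1% were called above brain and 24.3% below it in sciatic nerve, and 19.6% and 17.4% in optic nerve. Between the nerves the share was 10.9% in each direction. Lyn, the Src-family kinase that phosphorylates inhibitory motifs in many myeloid cells, had 305 ± 16.7 CPM in sciatic nerve, 587 ± 17.0 in optic nerve and 786 ± 159 in brain (log2 -1.37, SE 0.15, sciatic nerve vs brain, edgeR adjusted p = 3.52e-06). Src had 1.01 ± 0.811 CPM in sciatic nerve, 20.2 ± 7.68 in optic nerve and 13.4 ± 1.40 in brain. Fgr was highest in optic nerve, at 2.91 ± 3.15 CPM in sciatic nerve, 35.2 ± 9.23 in optic nerve and 5.36 ± 2.16 in brain. Fyn had 30.3 ± 6.30 CPM in sciatic nerve, 45.2 ± 3.56 in optic nerve and 21.7 ± 4.54 in brain, and its call was for optic nerve above brain (log2 1.06, SE 0.20, edgeR adjusted p = 0.000877). Syk, the kinase that activating adaptors recruit, was called in no comparison, with 105 ± 28.6 CPM in sciatic nerve, 79.9 ± 26.7 in optic nerve and 110 ± 34.4 in brain. Ptk2b had 59.4 ± 2.37 CPM in sciatic nerve, against 130 ± 29.1 in optic nerve and 119 in brain.

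**Figure D5:**
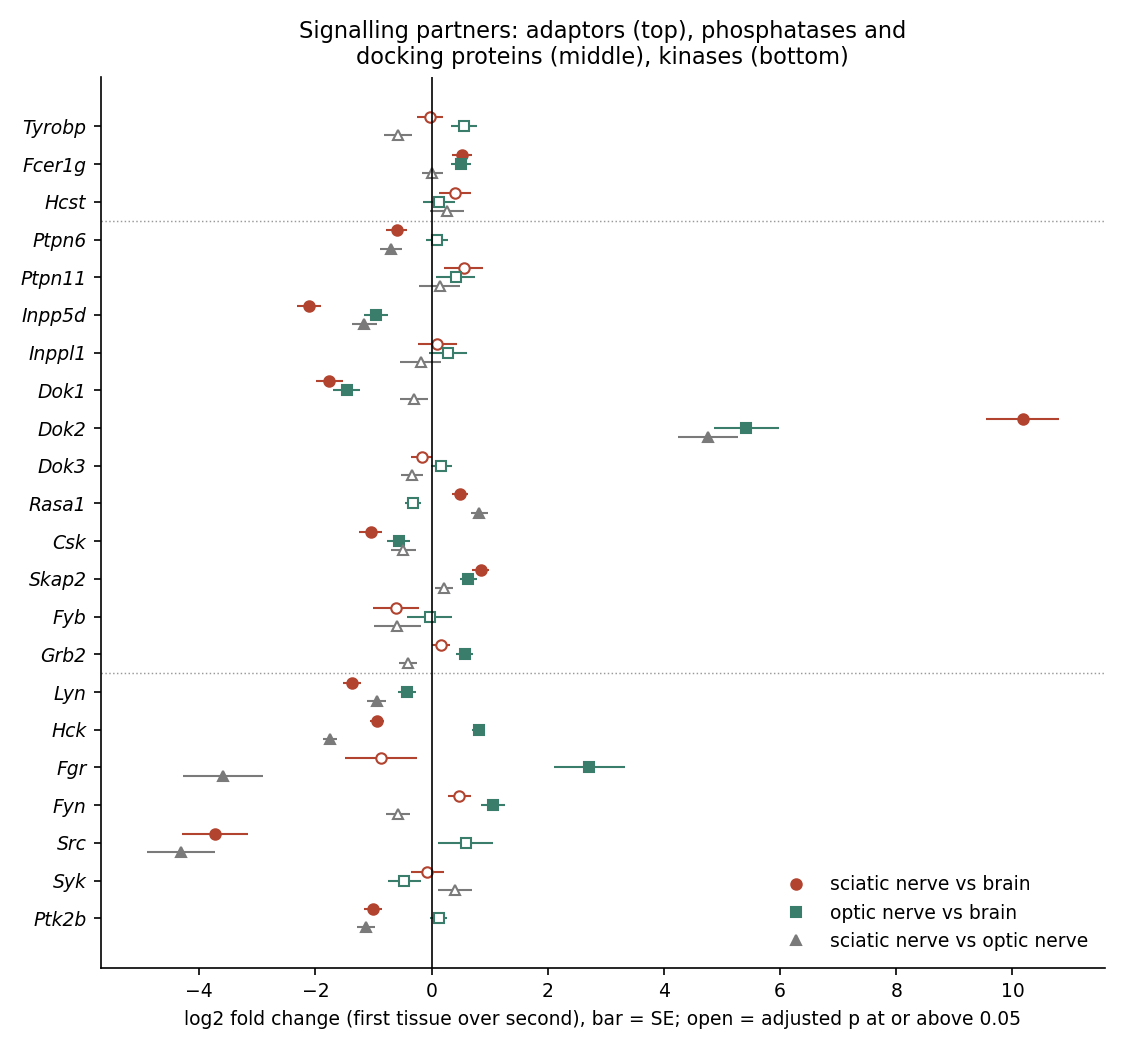
Log2 fold changes (first tissue over second), with SE bars, of adaptors, phosphatases and docking proteins, and kinases in sciatic nerve vs brain (circles), optic nerve vs brain (squares) and sciatic nerve vs optic nerve (triangles); open symbols have an edgeR adjusted p at or above 0.05. Dok2 lies at 10.18 in sciatic nerve vs brain, far from every other gene shown, and Inpp5d at -2.11.

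Genes of other states and cell types also differed between the tissues. Immediate early genes summed to 26352 to 31481 CPM in sciatic nerve, 12240 to 15562 in optic nerve and 348 to 417 in brain, and all 12 were called higher in each nerve than in brain, with 6 called higher in sciatic than in optic nerve. Of all tested genes, 24.1% were called higher in sciatic nerve than in brain, 19.6% in optic nerve than in brain and 10.9% in sciatic than in optic nerve. Fosb, 1 of the 12, passed the filter only through the nerves. Fos had 3347 CPM in sciatic nerve, 1427 in optic nerve and 1.22 in brain on average. The order of the tissues is that of Lilrb4a, Pirb and Cd300ld, and the part of these genes in the receptor results was not tested.

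Border macrophage markers summed to 9161 to 10396 CPM in sciatic nerve, 191 to 395 in optic nerve and 8.52 to 26.6 in brain, in the order of Cd300ld. Of 8 monocyte markers, Chil3 and Ace were at 0 in both nerves, and the sum of 393 to 566 CPM in sciatic nerve, against 7.54 to 23.5 in optic nerve and 0.712 to 10.2 in brain, was nearly all Ccr2. Dendritic cell markers summed to 353 to 456 CPM in sciatic nerve, 15.0 to 60.6 in optic nerve and 6.16 to 13.5 in brain, mostly Cd209a in sciatic nerve. A list of 8 neutrophil markers summed to 12.4 to 52.5 CPM in sciatic nerve, 166 to 324 in optic nerve and 178 to 295 in brain, mostly Csf3r, with 29.6, 241 and 233 CPM in these tissues. Of the other neutrophil markers, Retnlg had 1.64 CPM in sciatic nerve, 0.464 in optic nerve and 0 in brain, and S100a8 and Ly6g were at 0 in all tissues. Mast cell markers summed to 2.28 to 11.8 CPM in sciatic nerve, 0.167 to 0.705 in optic nerve and at most 0.0755 in brain. Among sciatic nerve libraries, replicate 4, which stood highest for Cd300lf, had the highest sums of mast cell (11.8 CPM), lymphoid (3.33) and endothelial (7.19) markers. It had the lowest sum of fibroblast markers (197). Fibroblast markers summed to 197 to 412 CPM in sciatic nerve, 12.5 to 41.3 in optic nerve and 2.27 to 7.65 in brain. These sums were mostly Gsn, with 210, 25.1 and 4.43 CPM in these tissues, and Dcn was next in sciatic nerve with 32.7. The part of these cells in the receptor levels was not tested.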

How the data were processed

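The deposited table holds counts of reads per gene symbol, not normalized, which the authors made with STAR and featureCounts 1.5.1 on mm10, per the submitters' processing notes. Not given in the sources used here are the version of STAR, the annotation, whether strand was used and how multi-mapping reads were counted. Nerve columns carry the tissue's initials and a replicate number, and since no label explains the prefix of the 5 others, these were assigned to brain by elimination. All columns of per-sample values were used (0 left out). The microarray and single-cell data were not analysed here.

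Tests ran in edgeR 4.0.16 under R 4.3.3 (filterByExpr by tissue, TMM scaling, 1 quasi-likelihood fit over 13 libraries with tissue as the only factor, Benjamini-Hochberg adjustment over 13246 genes). The procedure was tested on simulated counts. CPM used TMM-scaled library sizes, log2 CPM a prior count of 2, and CPM per kb the merged exons of GENCODE M21. Folds against a group at 0 used a floor of 3 counts over the group, which covers counting error only. Alternatives were DESeq2 1.42.0, its size factors in edgeR, no filter, only the 2 tissues compared, a replicate block and leaving out libraries.

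The receptors and gene lists were chosen with earlier results of these data known. From each list and comparison, the 2 called genes with the largest change and the most abundant gene not called were named; Cd300lb, Lilr4b and Gm14548, and further values of genes so named, were added after their values were seen.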

Additional observations from a re-analysis of the deposited data

Results flagged for a closer look

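In each of 27 groups (9 receptors in 3 tissues), the gap between the highest or lowest library and its nearest neighbour was compared with the group's range, a check that chance trips in about 1 of 20 groups. Lilrb4a in brain was the single case: brain replicate 1 had 6.72 CPM, and the other brain libraries had 1.88 to 3.13 CPM. Brain replicate 1 was also the library with the smallest total and the highest mitochondrial share (3.79%), and the part of either in its Lilrb4a level was not tested.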

How the results depend on the processing

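Over all alternatives, 494 of the receptors' comparisons kept their direction and their side of the threshold, 16 lost and 2 gained a call, and 1 changed sign. Of the other named genes' comparisons 1183 stayed the same, 36 lost and 12 gained a call, and 36 changed sign. The losses were in Cd300ld3, Fcer1g, Lilra6, Sirpb1a and Sirpb1c and the gains in Cd47, Dusp1 and Tyrobp. Of 228 counts of called genes, 227 stayed within 1.5 times the main count. The exception was the number of receptors called lower in sciatic than in optic nerve, which was 1 to 3 when 1 library was left out, with 1 reached without sciatic nerve replicate 1. Samples with the same replicate number did not deviate together (r -0.0776 to 0.0773 over 12 pairs, against -0.0982 to 0.0982 over 44 pairs with different numbers). The number was not used as a pairing, since the labels do not say that it marks a shared animal, batch or day. With it as a replicate block, 2920 genes were called higher in sciatic nerve than in brain, against 3191 without, Cd200r1 lost its call there (edgeR adjusted p = 0.0508), and Klrb1b in sciatic nerve vs brain (0.41) and Lair1 in optic nerve vs brain (0.034) changed sign. Without brain replicates 1 and 2 the sign changed for Fyb (0.38) and Tyrobp (0.41) in sciatic nerve vs brain, and for Ptpn6 (-0.084) and Rtn4 (0.83) in optic nerve vs brain. With only the nerves in the fit, Fcer1g in sciatic vs optic nerve was -0.017. Leaving out 1 library turned the sign, on the log2 scale, of Cd300lf in sciatic nerve vs brain (-0.66 to 1.12), Klrb1b (-4.32 to 0.75), Syk (-0.23 to 0.10) and Tyrobp (-0.14 to 0.20) in the same comparison, Lair1 (-0.060 to 0.047), Ptk2b (-0.045 to 0.20), Ptpn6 (-0.046 to 0.17) and Rtn4 (-0.22 to 0.37) in optic nerve vs brain, and Cd200r4 (-0.33 to 0.047) and Fcer1g (-0.081 to 0.089) in sciatic vs optic nerve. All of these were uncalled in the main analysis, and the cause was not tested. Few counts limit Cd300ld and Cd300lf in brain and Cd300lf in sciatic nerve, and 4 or 5 libraries a tissue limit the precision of all fold changes.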
